A study of Mus musculus with 20 samples.

Results

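The interferon response genes are 37 genes, chosen by their symbol from the 22298 listed in the liver count files, that are switched on when a cell senses interferon. All 37 were found in each of the 20 libraries, and 36 of them passed the filter on low counts, Oas2 being the exception. The livers came from male mice homozygous for the db mutation of Lepr, the leptin receptor gene, a model of obesity with diabetes. Aged 5 weeks, every mouse was injected by the tail vein with AAV8, which held either an shRNA without a target (Vec) or a combination of shRNAs against PPARγ (shRNA). Each arm was then gavaged daily for 4 weeks with carboxymethyl cellulose as vehicle or with benzbromarone (BBR), a uricosuric drug used in gout, at 25 mg per kg. The 4 groups, called Vec and Vec+BBR for the control vector and shRNA and shRNA+BBR for the knockdown, held 5 mice each. All mice, controls included, thus carried the db/db mutation and an AAV8 vector, and neither a lean mouse nor a mouse without a vector was among them. Tissues were taken after a 6 h fast.

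Interferons of type I and type III act through receptors coupled to JAK kinases, whose signal brings STAT2 and IRF9 to the interferon-stimulated response element (ISRE). Interferon gamma acts through the gamma-activated site (GAS) and through IRF1. In liver, hepatocytes, Kupffer cells, endothelial cells and lymphocytes all respond to interferon, and the products restrict viruses, present antigen and recruit T cells. In whole liver RNA, fewer cells of a type and less RNA per cell cannot be told apart.

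The stretch just before the start of a gene is where ISRE and GAS sequences are usually found. It is shown here for a selection of members, all but Ifitm3 with a match in the search that follows. Not every called member is printed, and Igtp, which is printed, passed in no comparison. RefSeq promoter entries of GRCm38.p6 were found for 31 of the 37 members, and Dhx58, Ifi27, Oas2, Parp14, Rtp4 and Usp18 had none. The 250 bases before the RefSeq start were searched on both strands for the ISRE core, GAAA and GAAA spaced by any 2 bases, and for the GAS core, TTC and GAA spaced by any 3 bases. The 31 members had 37 entries, some genes having more than 1 start. An ISRE match was found in 15 of these 37 entries (40.541%), against 978 of all 32851 promoter entries (2.977%). A GAS match was found in 7 of them (18.919%), against 2306 of all entries (7.02%). The Ifitm3 and Ifitm2 stretches lie on the minus strand at chr7:141010771-141010994 and chr7:140955988-140956211, and the Isg15 stretch on the minus strand at chr4:156200819-156201068. Those of Gbp3 (chr3:142559794-142560025), Igtp (chr11:58199306-58199555) and Irf1 (chr11:53769764-53770013) lie on the plus strand. The printed stretches end where the annotated gene span begins, which leaves out the last 26 bases of the window in Ifitm3 and Ifitm2 and the last 18 in Gbp3. In Gbp2 the last 61 bases of the window lie inside the annotated span and hold the match, so that only the site itself is given (chr3:142620594-142620623, plus strand). Each sequence reads 5′ to 3′ along the gene, and capitals mark every ISRE or GAS match.
Ifitm3: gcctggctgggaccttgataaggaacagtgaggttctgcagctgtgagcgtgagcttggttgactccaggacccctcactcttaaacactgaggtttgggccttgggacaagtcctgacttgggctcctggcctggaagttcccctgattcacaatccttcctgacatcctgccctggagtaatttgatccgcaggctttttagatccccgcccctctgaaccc
Ifitm2: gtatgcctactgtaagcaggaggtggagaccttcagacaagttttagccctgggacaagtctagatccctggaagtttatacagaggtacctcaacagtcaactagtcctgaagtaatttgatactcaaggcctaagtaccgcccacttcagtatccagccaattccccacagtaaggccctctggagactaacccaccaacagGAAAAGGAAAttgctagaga
Gbp3: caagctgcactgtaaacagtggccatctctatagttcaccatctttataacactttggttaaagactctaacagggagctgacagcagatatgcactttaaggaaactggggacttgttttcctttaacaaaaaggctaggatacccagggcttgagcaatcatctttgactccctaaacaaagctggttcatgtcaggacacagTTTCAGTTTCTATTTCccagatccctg
Gbp2: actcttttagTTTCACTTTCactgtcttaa
Igtp: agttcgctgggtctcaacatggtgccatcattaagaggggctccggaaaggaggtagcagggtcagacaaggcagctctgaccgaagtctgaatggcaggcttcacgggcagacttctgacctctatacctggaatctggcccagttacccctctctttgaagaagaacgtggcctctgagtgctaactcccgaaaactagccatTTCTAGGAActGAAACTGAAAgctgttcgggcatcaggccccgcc
Irf1: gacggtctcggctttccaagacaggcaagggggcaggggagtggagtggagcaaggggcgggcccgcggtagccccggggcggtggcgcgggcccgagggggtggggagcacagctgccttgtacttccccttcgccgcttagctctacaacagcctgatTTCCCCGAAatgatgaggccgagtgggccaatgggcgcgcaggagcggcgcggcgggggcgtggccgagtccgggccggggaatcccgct
Isg15: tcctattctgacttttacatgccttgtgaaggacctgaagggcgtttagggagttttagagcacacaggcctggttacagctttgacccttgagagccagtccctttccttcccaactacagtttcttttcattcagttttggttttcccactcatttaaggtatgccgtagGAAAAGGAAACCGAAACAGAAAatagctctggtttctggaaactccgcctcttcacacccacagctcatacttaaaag
Counted from the RefSeq start, Ifitm2 held an ISRE core from 46 to 37 bases before it, whereas no match to these letters was found in the window of Ifitm3. Gbp3 held 2 overlapping ISRE cores between 45 and 30 bases before the start, and Isg15 held 3 between 78 and 57. Igtp held a GAS core from 45 to 37 bases and an ISRE core from 34 to 25 bases before its start. Irf1 held a GAS core from 90 to 82 bases before the start and no ISRE core. Irf1 and Gbp3 each had another RefSeq start, whose window held no match. In these genes the start with a match was the one printed. The windows of Irf7, Ddx58 and Ifi47, which are not printed, held neither core. A match describes letters only, and the binding of a factor was not measured.

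Total counts per library lay between 17432904 and 25024099. Hepatocyte markers summed to at least 84400 CPM (counts scaled to the TMM-normalized library size) in every library. Pparg, the targeted gene, stood at 16.4, 20.1, 35.9, 19.4 and 32.1 CPM in Vec livers and at 7.31, 6.53, 5.96, 3.24 and 5.63 CPM in shRNA livers. With BBR it stood at 34.8, 29.8, 28, 28.1 and 38.3 CPM in Vec+BBR and at 11.4, 9.99, 21.8, 18.9 and 7.19 CPM in shRNA+BBR livers. It was lower with the knockdown under vehicle (log2 fold change -2.12 ± 0.28, SE, adjusted p = 4.47e-05) and under BBR (-1.20 ± 0.26, SE, adjusted p = 0.00843). Within shRNA mice it was higher with BBR (1.28 ± 0.28, SE, adjusted p = 0.00773), and shRNA+BBR mice 3 and 4 lay within the range of Vec livers, while the difference between the BBR effects on Pparg did not pass (0.92 ± 0.38, SE, adjusted p = 0.208). Among the livers, shRNA+BBR mouse 2 was the highest of its group in 23 of the 36 members, and shRNA mouse 5 was the lowest of its group in 28. Vec+BBR mouse 4 was the lowest of its group in 20 members and Vec mouse 2 in 18, and Vec mouse 3 was the highest in 17. Vec mouse 1 was the highest in 11 and the lowest in 9. The results that follow are given with and without single mice where these decide them.

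The levels of the genes were compared with each other by FPKM, the deposited value that is scaled for length. In Vec livers the membrane proteins led. Ifitm3 and Ifitm2, small proteins that block the entry of enveloped viruses, reached 291 ± 58.2 and 184 ± 13.2 FPKM (SD, n = 5), and Bst2 (tetherin), which holds budding virions at the cell surface, 82.9 ± 13.6 FPKM. Ifitm3 did not overlap with Ifitm2 across the 5 mice, nor Ifitm2 with Bst2. From Bst2 down, every gene overlapped with the next in the order. The GTPase Igtp followed with 37 ± 21.4 FPKM, and Ifi27, a small hydrophobic protein, with 34.3 ± 6.95 FPKM. Irf7 was the highest of the transcription factors at 13.0 ± 3.91 FPKM and Stat2 the lowest at 3.29 ± 0.54 FPKM.

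The RNA sensors were at moderate levels, from Ddx58 (RIG-I) at 4.26 ± 0.71 FPKM to Ifih1 (MDA5) at 1.76 ± 0.55 FPKM. Trim25, the ubiquitin ligase of RIG-I, was highest of the ubiquitin-like pathway at 8.24 ± 2.80 FPKM, and Usp18, which removes ISG15 and damps receptor signalling, lowest at 4.95 ± 1.28 FPKM. The classical antiviral effectors were the lowest class. Ifit3 was the highest of them at 7.37 ± 2.70 FPKM, and Ifit2, which binds viral RNA, reached only 0.294 ± 0.183 FPKM. Gbp7 was the lowest GTPase at 0.349 ± 0.358 FPKM. Oas2, which makes the activator of RNase L, was lowest of all at 0.0924 ± 0.0240 FPKM and was left out of every test, with 2 to 15 counts in a library. Ifi44 stood just above it at 0.251 ± 0.149 FPKM. Cxcl10, a chemokine for T cells and NK cells, had 4.47 ± 2.80 FPKM.

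On GRCm38 several members are neighbours. Ifitm3 (chr7:141009586-141010770) and Ifitm2 (chr7:140954837-140955987) lie on the minus strand of the same chromosome, with Irf7 (chr7:141262706-141266481) close by. Gbp7, Gbp3 and Gbp2 lie in this order on the plus strand of chromosome 3, Gbp2 at chr3:142620602-142638008 and Gbp3 at chr3:142560026-142573209. Igtp (chr11:58199556-58207591), Ifi47 (chr11:49076587-49096974), Irgm1 and Irf1 (chr11:53770014-53778374) share chromosome 11, and Ifit2, Ifit3, Ifit3b and Ifit1 lie in a cluster on chromosome 19. Ddx58 (chr4:40203773-40239828) and Isg15 (chr4:156199424-156200818) are both on chromosome 4, far apart. Ifit3 and Ifit3b are close copies, so the division of their reads is uncertain.

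**Figure D1:**
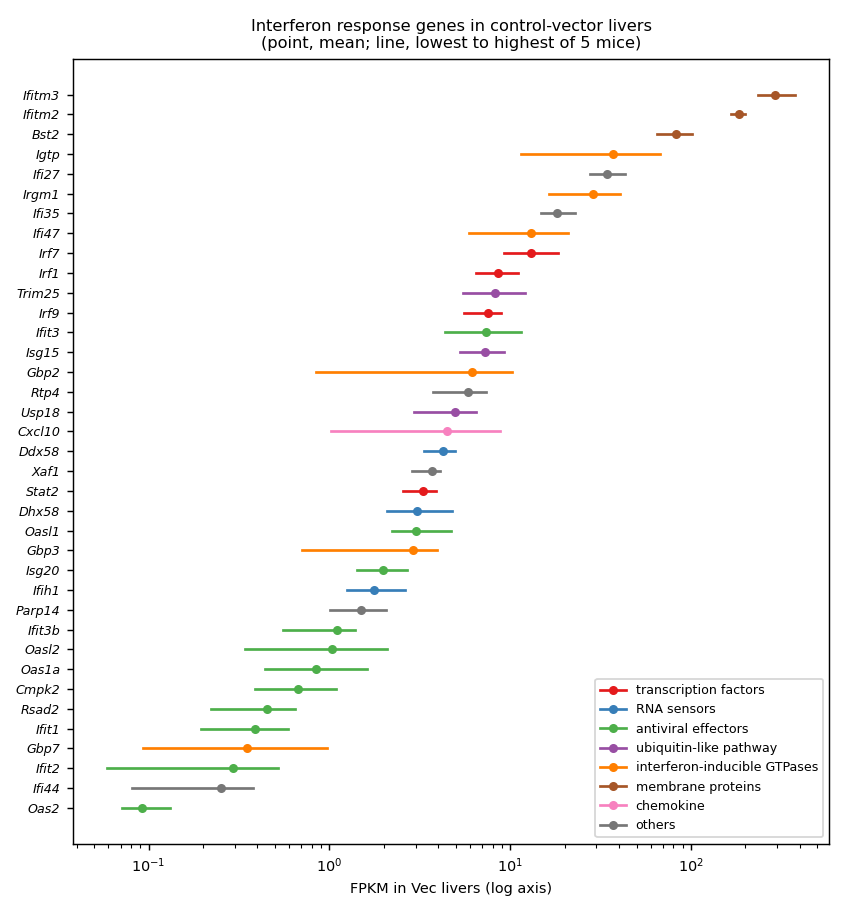
Level of the 37 interferon response genes in Vec livers, in FPKM on a log axis, with the mean as a point, the lowest to the highest of 5 mice as a line and the role as the colour. Ifitm3 (291 FPKM), Ifitm2 (184 FPKM) and Bst2 (82.9 FPKM) stand at the top and Oas2 (0.0924 FPKM) at the bottom.

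**Figure D2:**
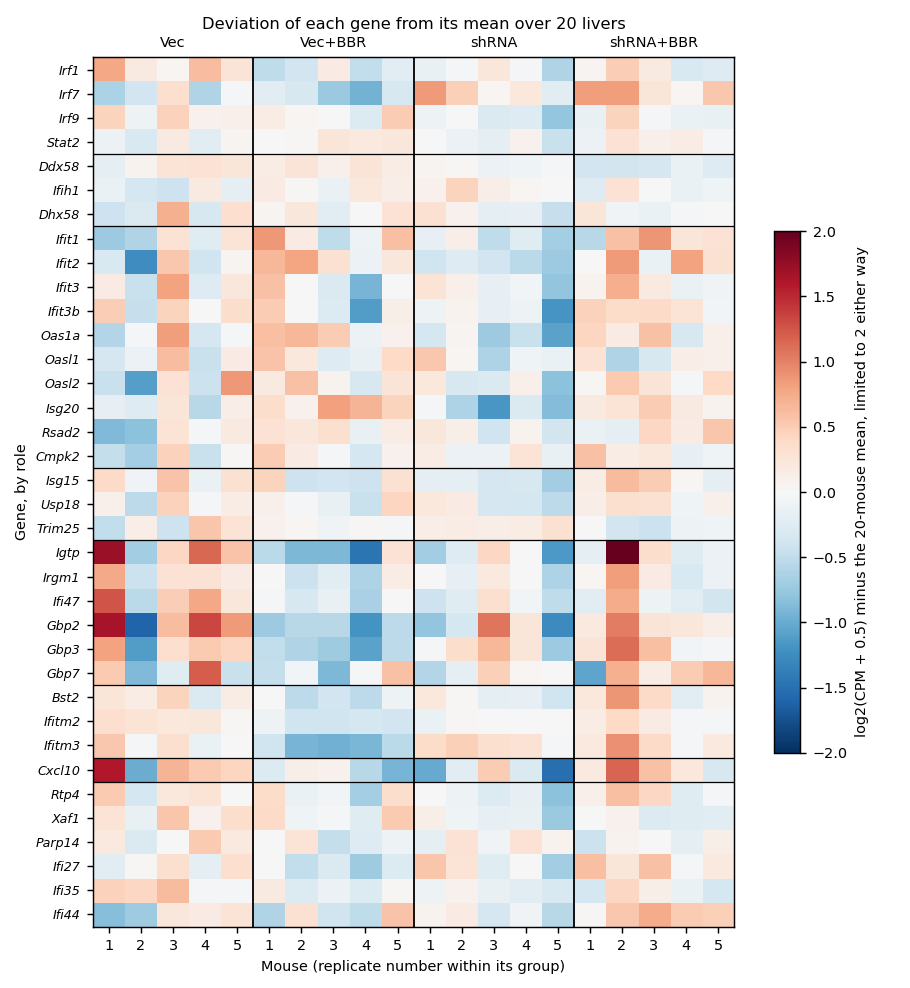
Deviation of log2(CPM + 0.5) from the mean over 20 mice for the 36 tested genes (vertical axis, by role) in each mouse (horizontal axis, by group); the colours stop at 2 in either direction. The GTPases and membrane proteins are mostly blue in Vec+BBR, and shRNA+BBR mouse 2 and Vec mouse 1 are dark red in Igtp.

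The first comparison asked how BBR changed these genes in livers with the control vector. Of the 36 members 6 fell (adjusted p under 0.05) and none rose, where 7.88% of all 12342 tested genes fell and 7.58% rose. At an unadjusted p under 0.05, 12 members were lower, beside 15.3% of all tested genes, and 2, Ifit2 and Isg20, were higher, beside 14.9%. DESeq2 called 7 members lower, the same 6 and Igtp, and limma-voom 3, Ifitm2, Ifitm3 and Irf1, so that in limma-voom none of the GTPases passed. Both called 1 member, Isg20, higher. The median log2 fold change of the members was -0.19, beside -0.005 over all tested genes. The genes that fell were the membrane proteins Ifitm2 and Ifitm3, the GTPases Gbp2, Gbp3 and Ifi47, and the transcription factor Irf1. No antiviral effector or RNA sensor was called.

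Ifitm3 stood at 272, 182, 234, 171 and 186 CPM in Vec livers and at 143, 98.2, 95.9, 99.7 and 129 CPM in Vec+BBR livers. Every Vec+BBR liver lay below every Vec liver, and the log2 fold change was -0.89 ± 0.17 (SE, adjusted p = 0.0016). Ifitm2 stood at 138, 133, 128, 128 and 111 CPM in Vec and at 102, 82.9, 83.3, 85.8 and 83.8 CPM in Vec+BBR livers. Again the groups did not overlap, and BBR lowered Ifitm2 by a log2 fold change of -0.54 ± 0.09 (SE, adjusted p = 0.000591). Complete separation downward was seen in these 2 of 36 members and in 4.24% of all tested genes. Both calls remained in all 29 alternative analyses. The Ifitm2 gene shares 1101 bases with Gm45717 on the same strand, and the Ifitm genes are similar in sequence, so the division of reads between them is uncertain. Bst2, the third membrane protein, was at 74, 69.3, 85.2, 51.2 and 68.9 CPM in Vec and 62.7, 43.2, 47.7, 43.4 and 58.3 CPM in Vec+BBR livers, which overlapped, and did not pass the test (log2 fold change -0.45 ± 0.17 (SE, adjusted p = 0.0844)).

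The interferon-inducible GTPases coat vacuoles that hold intracellular microbes and are strong targets of interferon gamma. All 6 had log2 fold changes below 0 in Vec+BBR against Vec, with -0.95 as their median, and 3 of them fell. In 1 of 29 alternatives, without Vec mouse 4, Gbp7 lay above 0. Gbp2, a guanylate-binding protein, stood at 27.4, 2.44, 13.2, 22 and 15.7 CPM in Vec and at 4.87, 5.55, 5.57, 3.39 and 5.70 CPM in Vec+BBR livers, and its log2 fold change was -1.69 ± 0.45 (SE, adjusted p = 0.0149). Vec mouse 2 was below all Vec+BBR mice, while the other 4 Vec mice were above them. Gbp3 had the same layout, with 9.42, 2.12, 6.62, 7.66 and 7.16 CPM against 3.55, 3.23, 2.95, 2.19 and 3.44 CPM and a log2 fold change of -1.11 ± 0.32 (SE, adjusted p = 0.0225). Ifi47, an immunity-related GTPase, stood at 35.5, 9.90, 20.7, 25.2 and 17.1 CPM in Vec and at 14.2, 11.6, 13.1, 9.15 and 14.5 CPM in Vec+BBR livers, which overlapped through Vec mouse 2 (log2 fold change -0.79 ± 0.26 (SE, adjusted p = 0.045)). The annotated span of Ifi47 lies within that of Olfr56 over 20388 bases on the same strand.

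Igtp, another immunity-related GTPase and the highest of the 6 in FPKM, stood at 142, 26.4, 57, 95.4 and 63.7 CPM in Vec and 29.3, 22.7, 22.8, 15.2 and 52.5 CPM in Vec+BBR livers. Its log2 fold change of -1.44 ± 0.49 (SE, adjusted p = 0.0509) did not pass, and it shares 7974 bases with Irgm2 on the same strand. Irf1, a transcription factor that carries the interferon gamma response, stood at 23.9, 15.6, 14.1, 21.4 and 16.4 CPM in Vec livers. In Vec+BBR livers it was at 9.53, 10.4, 15.3, 9.64 and 11.7 CPM, which overlapped with Vec through mouse 3, and it fell by a log2 fold change of -0.69 ± 0.18 (SE, adjusted p = 0.0151). Its span shares 907 bases with Gm17334 on the other strand.

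One liver decided part of this. Without Vec mouse 1 the count of members that fell was 2, Ifitm2 and Ifitm3, and Irf1 (adjusted p = 0.0511), Gbp2 (0.0508), Gbp3 (0.072) and Ifi47 (0.165) did not pass. Gbp3 also did not pass without Vec+BBR mouse 4 (adjusted p = 0.0643). The Ifi47 call was lost as well without Vec mouse 4, Vec+BBR mouse 2, 3, 4 or 5, shRNA mouse 1, 2 or 4 or shRNA+BBR mouse 1, with adjusted p from 0.0503 to 0.114. Without both Vec mouse 1 and shRNA+BBR mouse 2, an alternative chosen after seeing the data, 3 members fell, Ifitm2, Ifitm3 and Irf1.

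Like the GTPases, markers of T and NK cells had a lower group median in Vec+BBR than in Vec livers. The summed level of 12 such markers ran from 1.09 to 18.3 CPM in Vec livers (median 11.2) and from 2.77 to 4.76 CPM in Vec+BBR livers (median 2.87). Single mice did not always follow this. Vec+BBR mouse 5 was the highest of its group in Igtp at 52.5 CPM, with a marker sum of 2.87 CPM. Vec mouse 3 had the highest marker sum among Vec livers, with Igtp at 57 CPM beside 142 CPM in Vec mouse 1. All 7 tested markers lay below 0, and Cd3g, Cd8a, Nkg7 and Ccl5 fell (57.1%, beside 7.88% of all tested genes). In Vec+BBR livers Cd3g, Cd8a and Nkg7 averaged only 0.173, 0.135 and 0.25 CPM, a level of few counts. Cd8a had no count in Vec+BBR mice 4 and 5. None of the 12 was at 0 throughout a group, and the lowest sum among Vec livers was that of mouse 2, which was also the lowest in Gbp2, Gbp3, Igtp and Ifi47. Their part in the fall of the interferon genes was not tested. Kupffer cell and macrophage markers summed to 232 to 546 CPM in Vec and 310.2 to 477 CPM in Vec+BBR livers, with Cd68 higher and Timd4 and Marco lower among 12 tested. Sinusoidal endothelial markers summed to 84.4 to 107 CPM in Vec and 109.6 to 139 CPM in Vec+BBR livers, and 3 of 6 rose. B cell markers summed to 1.35 to 5.86 CPM and 1.61 to 4.85 CPM. Hepatocyte markers summed to 111700 to 143800 CPM in Vec and 84400 to 119400 CPM in Vec+BBR livers. Of these markers 5 of 6 lay below 0, and Serpina1c and Fgb fell (33.3%, beside 7.88% of all tested genes). Serpina1c fell from a mean of 5117 to 1789 CPM (log2 fold change -1.52) and Fgb from 2505 to 1799 CPM (-0.48).

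**Figure D3:**
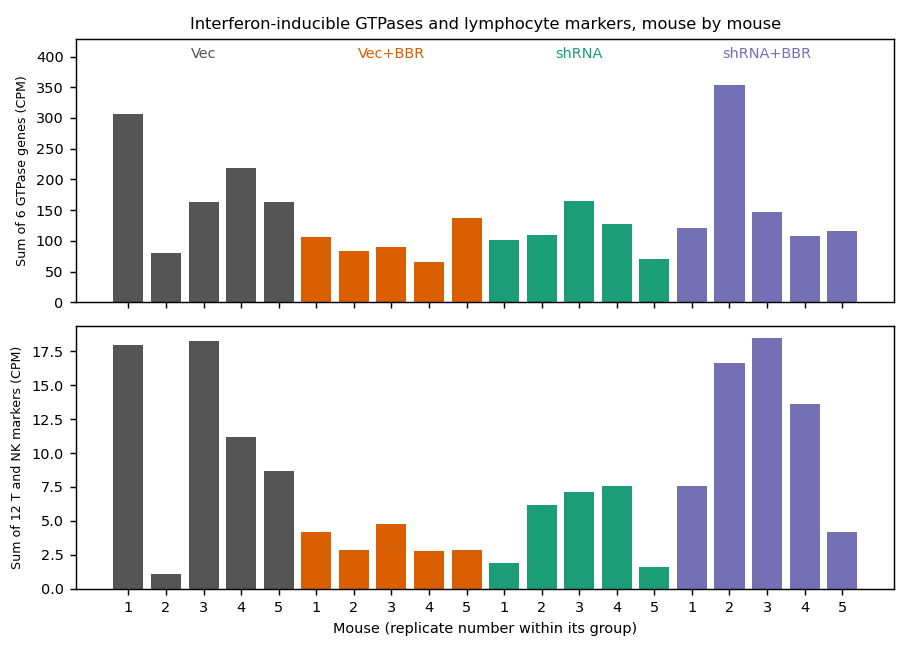
Summed CPM of the 6 interferon-inducible GTPases (upper) and of 12 T and NK cell markers (lower) in each of the 20 mice, coloured by group. The GTPase sum had a median of 164 CPM in Vec, 90.7 in Vec+BBR, 109 in shRNA and 121 in shRNA+BBR livers, and the marker sum 11.2, 2.87, 6.19 and 13.6 CPM.

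Knockdown of PPARγ under vehicle changed 1 member past the threshold. Irf9, the DNA-binding part of the factor that reads the ISRE, fell, and no member rose, where 7.91% of all tested genes fell and 5.28% rose. At an unadjusted p under 0.05, 13 members were lower, beside 15.8% of all tested genes, and 2, Irf7 and Ifih1, were higher, beside 12.7%. DESeq2 called 5 members lower, Ifi35, Ifi47, Irf1, Irf9 and Isg15, and limma-voom called Irf9, and neither called any higher. Members had a median log2 fold change of -0.25, beside -0.009 for all genes, and 30 of 36 lay below 0. The Vec mice enter this comparison and that of BBR in Vec livers alike, so that a high level in them lowers both.

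Irf9 stood at 22.9, 15.5, 23.2, 17.8 and 18 CPM in Vec and at 15.5, 16.5, 13.5, 13.9 and 9.58 CPM in shRNA livers, a log2 fold change of -0.50 ± 0.16 (SE, adjusted p = 0.0474). The groups overlapped, with shRNA mouse 5 lowest of all 10. This call was lost in 18 of 29 alternatives, among them 14 that left out 1 mouse, with adjusted p from 0.0299 to 0.122 over all of them. It was kept without Vec mouse 2 or 4, Vec+BBR mouse 4 or 5, shRNA mouse 2 or shRNA+BBR mouse 2, and lost without any of the others. Irf9 shares 123 bases with Rnf31 on the same strand. Next by p-value were Ifi35, a partner of Nmi in interferon signalling, with -0.45 ± 0.15 (SE, adjusted p = 0.0544), and Isg15, the ubiquitin-like modifier, with -0.64 ± 0.22 (SE, adjusted p = 0.0602), neither of which passed. All 5 shRNA livers were below all Vec livers in Isg15, at 3.93, 3.91, 3.46, 3.50 and 2.58 CPM against 6.01, 4.24, 6.91, 4.06 and 5.70 CPM. Such separation downward was found in this 1 member and in 5.01% of all tested genes. The count also moved with single mice. Without shRNA+BBR mouse 2 the members that fell were 5, Ifi35, Ifi47, Ifitm2, Irf1 and Irf9. Without Vec mouse 2, Vec mouse 4 or shRNA mouse 3 4 members were called, all lower except Ifih1, which was higher without Vec mouse 4.

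T and NK markers summed to 1.63 to 7.58 CPM in shRNA livers, with Nkg7 and Ccl5 lower than in Vec. Kupffer cell and macrophage markers summed to 287 to 388 CPM, and 11 of 12 lay below 0 (median log2 fold change -0.44), with Cd68 called lower. Sinusoidal endothelial markers summed to 114 to 157 CPM, above every Vec liver, and 4 of 6 rose, Stab2, Clec4g, Kdr and Fcgr2b. The part of these cells was not tested.

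Under BBR the knockdown went with higher levels of several of these genes. Of 36 members 6 rose and 1 fell, where 3.31% of all tested genes rose and 4.82% fell. Those that rose were all 3 membrane proteins, the GTPase Gbp3, Irf7, the master regulator of type I interferon production, and Ifi27. Ddx58 fell. The median log2 fold change was 0.18, beside -0.004 for all genes. This comparison shares the Vec+BBR mice with the comparison of BBR in Vec livers, so that a low level in those 5 mice enters both, with opposite signs.

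Ifitm3 stood at 216, 353, 245, 184 and 215 CPM in shRNA+BBR livers, each above every Vec+BBR liver, a log2 fold change of 1.10 ± 0.17 (SE, adjusted p = 0.000686). Ifitm2 stood at 122, 145, 122, 107 and 107 CPM, again without overlap, and rose by a log2 fold change of 0.46 ± 0.09 (SE, adjusted p = 0.00367). Set against Vec+BBR, Bst2 rose by 0.60 ± 0.17 (SE, adjusted p = 0.0362) on the log2 scale. In shRNA+BBR livers it was at 71.8, 115, 81.6, 53.5 and 65.2 CPM, with mouse 2 highest. The Bst2 call was lost without that mouse (adjusted p = 0.122), without shRNA+BBR mouse 3 (0.0661) and without Vec+BBR mouse 2, 3 or 4 (0.0878, 0.0794 and 0.0921).

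Irf7 stood at 25.5, 23.9, 17.6, 15.3 and 23.7 CPM in Vec+BBR and at 53.5, 54, 35.3, 30.6 and 43.5 CPM in shRNA+BBR livers. The groups did not overlap, the log2 fold change was 1.03 ± 0.22 (SE, adjusted p = 0.00673), and the call remained in all 29 alternatives. Under vehicle the same gene was at 19.2, 22.8, 37.7, 19.6 and 29.5 CPM in Vec and 54.6, 41.7, 30.8, 34.6 and 25.7 CPM in shRNA livers, a log2 fold change of 0.54 ± 0.22 (SE, adjusted p = 0.106) that did not pass. Irf7 and Phrf1 share 45 bases on opposite strands. Ddx58, the RNA sensor RIG-I, moved the other way. It stood at 17.4, 18.8, 16.9, 18.8 and 17.4 CPM in Vec+BBR and at 11.8, 12, 12.2, 14.2 and 13.1 CPM in shRNA+BBR livers. All shRNA+BBR livers were lower than all Vec+BBR livers, and the log2 fold change of -0.50 ± 0.09 (SE, adjusted p = 0.00172) remained past the threshold in all 29 alternatives. Separation was complete in 5 members upward (3.28% of all tested genes), namely Ifitm2, Ifitm3, Irf7, Gbp2 and Gbp3, and in 1 downward (5.19%).

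All 6 GTPases lay above 0 in this comparison, with a median log2 fold change of 0.88, which was 0.50 without shRNA+BBR mouse 2. Gbp3 stood at 6.30, 11.7, 8.10, 4.97 and 5.09 CPM in shRNA+BBR livers, all above Vec+BBR, a log2 fold change of 1.24 ± 0.32 (SE, adjusted p = 0.0197). It did not pass without shRNA+BBR mouse 2 (adjusted p = 0.0697) or without Vec+BBR mouse 4 (0.0561). Gbp2 stood at 9.74, 17.7, 10.2, 9.90 and 9.24 CPM and did not overlap with Vec+BBR either, but its log2 fold change of 1.18 ± 0.45 (SE, adjusted p = 0.106) did not pass. Igtp stood at 37.8, 202, 54.9, 36.2 and 39.5 CPM, where mouse 2 was far above the others, and had 1.38 ± 0.49 (SE, adjusted p = 0.081). Without that mouse the log2 fold change of Igtp was 0.58 and that of Ifi47 was 0.003 in place of 0.26, and with Vec mouse 1 left out as well Ifi47 was at -0.004. Ifi27 stood at 31, 21.7, 25.1, 18.5 and 25.3 CPM in Vec+BBR and at 47, 36.3, 46.2, 30.1 and 35.1 CPM in shRNA+BBR livers, with overlap, and rose by 0.68 ± 0.19 (SE, adjusted p = 0.0337) on the log2 scale. Its call was lost when any of 7 single mice was left out, Vec+BBR mice 2, 3, 4 and 5 and shRNA+BBR mice 1, 2 and 3, with adjusted p from 0.0567 to 0.0919. Without shRNA+BBR mouse 2, and likewise without Vec+BBR mouse 4, the members called were Ifitm2, Ifitm3, Irf7 and Ddx58. T and NK markers summed to 4.21 to 18.5 CPM in shRNA+BBR livers (median 13.6), and Nkg7 and Ccl5 rose, as did the B cell marker Jchain. B cell markers summed to 51.7 CPM in shRNA+BBR mouse 4 and to at most 9.85 CPM in the other mice of that group. The mean of Jchain there, 11.0 CPM, thus rested largely on this mouse. The part of these cells in the rise of the interferon genes was not tested.

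**Figure D4:**
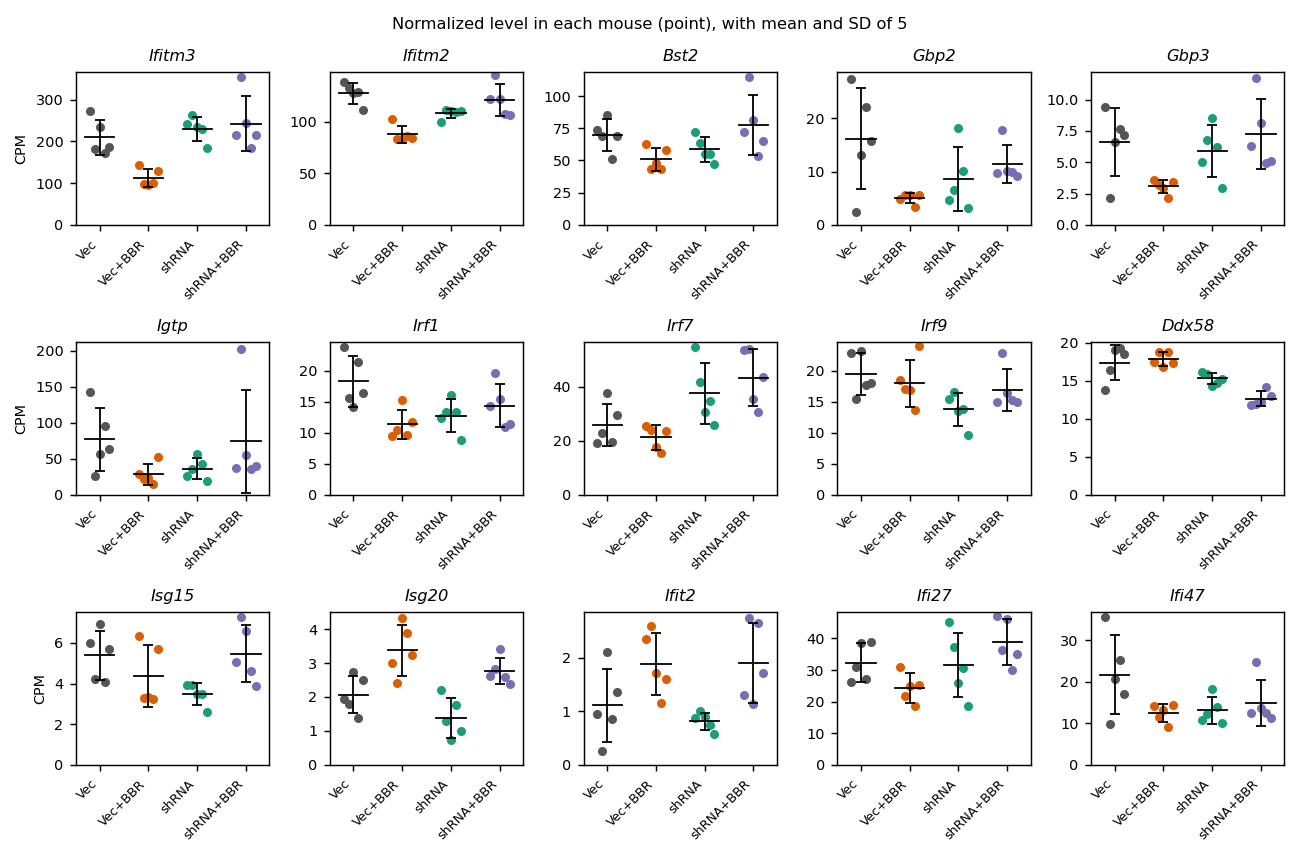
CPM of 15 interferon response genes in each mouse (points), with the mean and SD of the 5 mice of a group as lines. Ifitm3 is lowest in Vec+BBR (113 CPM, beside 209 in Vec and 242 in shRNA+BBR), Ddx58 is lowest in shRNA+BBR (12.6 CPM), and Igtp in shRNA+BBR is drawn up by 1 mouse at 202 CPM.

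The effect of BBR in knockdown livers was read from shRNA+BBR against shRNA. Here 3 members rose (8.33%), Ifit2, Isg20 and Isg15, and Ddx58 fell (2.78%), where 8.37% of all tested genes rose and 7.28% fell. The counts were thus no higher than the background. The median log2 fold change was 0.30, beside 0.008 for all genes, and 31 of 36 members lay above 0. This comparison shares the shRNA mice with the knockdown under vehicle, so that a low level in those 5 mice enters both, with opposite signs. Isg15, for example, had means of 5.39 CPM in Vec, 3.48 in shRNA and 5.48 in shRNA+BBR livers. Antiviral effectors had a median of 0.59, and 2 of the 10 tested were called.

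Isg20, an exonuclease that degrades viral RNA, stood at 2.19, 1.28, 0.725, 1.75 and 1.00 CPM in shRNA and at 2.62, 2.82, 3.41, 2.60 and 2.40 CPM in shRNA+BBR livers. The groups did not overlap, and the log2 fold change of 1.00 ± 0.25 (SE, adjusted p = 0.0142) remained past the threshold in all 29 alternatives. In control-vector livers Isg20 was at 1.95, 1.80, 2.75, 1.37 and 2.50 CPM without and 2.99, 2.42, 4.33, 3.88 and 3.25 CPM with BBR, a log2 fold change of 0.69 ± 0.24 (SE, adjusted p = 0.0524) just short of the threshold. Ifit2 stood at 0.868, 1.00, 0.886, 0.745 and 0.583 CPM in shRNA and at 1.31, 2.73, 1.14, 2.65 and 1.71 CPM in shRNA+BBR livers, also without overlap, and rose by a log2 fold change of 1.23 ± 0.36 (SE, adjusted p = 0.0276). The Ifit2 call was lost without shRNA mouse 1, 4 or 5 or shRNA+BBR mouse 2 or 4, with adjusted p from 0.0502 to 0.0755. Complete separation upward was found in these 2 members and in 5.79% of all tested genes.

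Isg15 stood at 5.04, 7.29, 6.58, 4.61 and 3.86 CPM in shRNA+BBR livers, which overlapped with shRNA, and rose by 0.66 ± 0.22 (SE, adjusted p = 0.0462) on the log2 scale. It did not pass without Vec mouse 1 or 5, without any single shRNA mouse, or without shRNA+BBR mouse 2, 3 or 4, with adjusted p up to 0.128. Ddx58 stood at 16.2, 16, 14.4, 14.8 and 15.3 CPM in shRNA livers, each above every shRNA+BBR liver, and fell with BBR by a log2 fold change of -0.28 ± 0.09 (SE, adjusted p = 0.0375). That call was lost without shRNA mouse 1, 2, 4 or 5 or shRNA+BBR mouse 1, 2 or 3, with adjusted p from 0.0556 to 0.0973. Trim25 separated downward as well, as did 5.58% of all tested genes, but its -0.37 ± 0.15 (SE, adjusted p = 0.0849) did not pass. Only Isg20 was called without shRNA mouse 1, 4 or 5 or shRNA+BBR mouse 2. Nkg7 rose in this comparison, and so did Cd68, C1qa and C1qb among 12 macrophage markers and Ighm and Jchain among 3 tested B cell markers. The summed B cell markers stood at 51.7 CPM in shRNA+BBR mouse 4, beside at most 9.85 CPM in the other mice of that group. Of other markers, S100a8 of neutrophils, Ly6d of the plasmacytoid dendritic cell list and Lyve1 of sinusoidal endothelium rose, and Stab2, Kdr and the hepatocyte gene Serpina1c fell. The part of these cells was not tested.

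**Figure D5:**
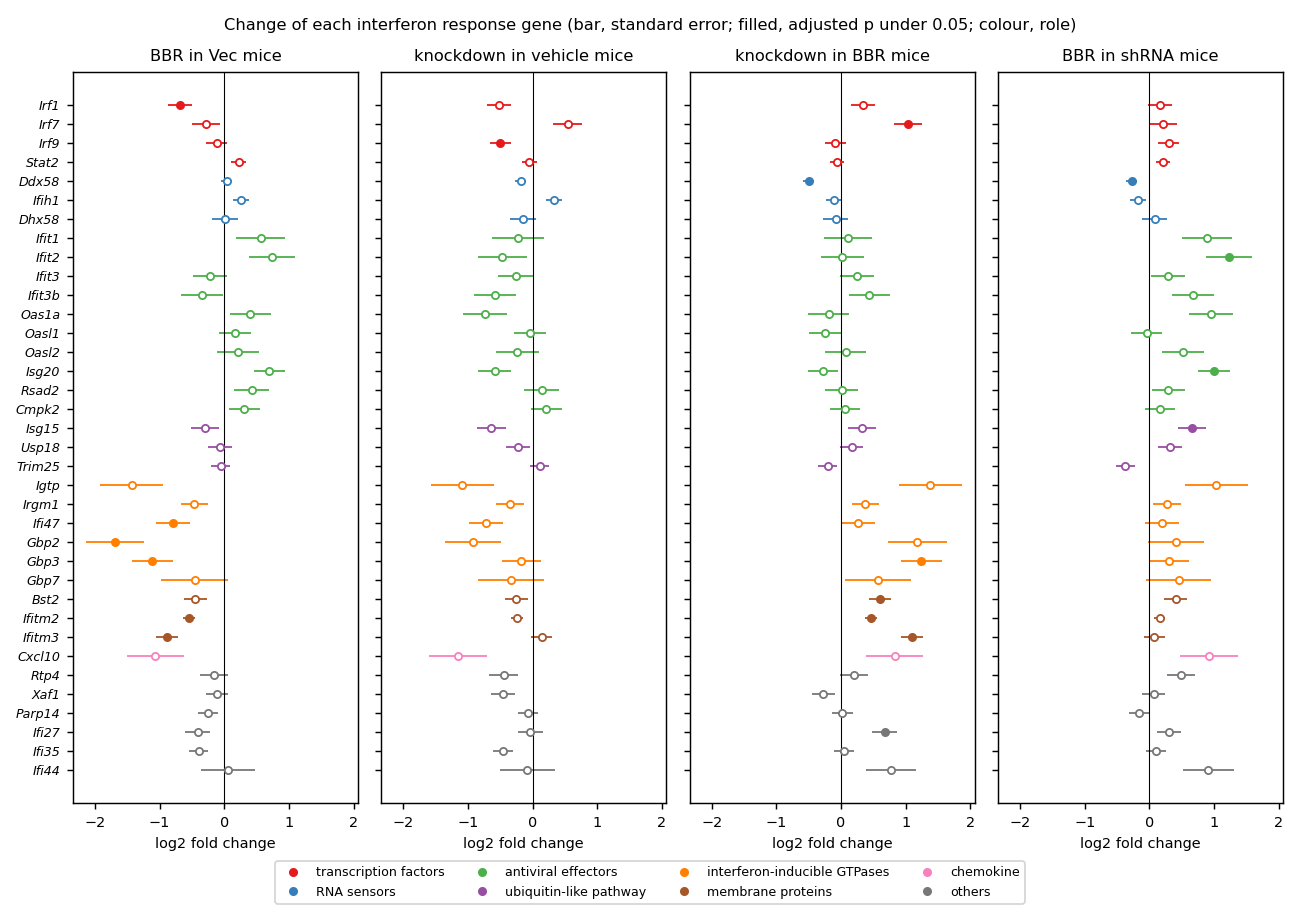
Log2 fold change with its standard error for the 36 tested genes (vertical axis, by role) in the 4 comparisons between groups; filled points passed the test at an adjusted p under 0.05. All 6 GTPases lie below 0 with BBR in Vec mice (median -0.95) and above 0 with the knockdown in BBR mice (median 0.88).

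Whether BBR acted differently in the livers with control vector and with knockdown was tested as the difference between the 2 BBR effects. One member passed, Ifitm2, where 0.0729% of all tested genes were called higher and 0.0729% lower. BBR changed Ifitm2 by -0.54 on the log2 scale in Vec and by 0.16 in shRNA mice, a difference of 0.70 ± 0.12 (SE, adjusted p = 0.0237). The group means of Ifitm2 were 128 ± 10.2, 87.7 ± 8.34, 108 ± 4.69 and 121 ± 15.6 CPM (SD, n = 5), in the order Vec and Vec+BBR, then shRNA and shRNA+BBR. The call held in 22 of 28 alternatives and was lost without Vec mouse 1 (adjusted p = 0.054), Vec+BBR mouse 3, 4 or 5 (0.051, 0.0564 and 0.0561) or shRNA mouse 4 (0.0521).

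Ifitm3 came next with a difference of 0.96 ± 0.23 (SE, adjusted p = 0.0796), followed by Igtp with 2.47 ± 0.69 (SE, adjusted p = 0.102), and neither passed. Without shRNA+BBR mouse 2 the Igtp difference was 1.67 (adjusted p = 0.189), and without Vec mouse 1 as well 1.31 (adjusted p = 0.336). The difference was positive in all 3 membrane proteins and all 6 GTPases, the latter with a median of 1.20, and in 29 of 36 members, with a median of 0.51 beside 0.012 for all genes. At an unadjusted p under 0.05, 15 members were higher (41.7%, beside 9.79% of all tested genes) and 2, Ddx58 and Ifih1, lower (5.56%, beside 8.69%). DESeq2 called 6 members higher, namely Bst2, Gbp3, Ifitm2, Ifitm3, Igtp and Irf1, and none lower, and limma-voom called Ifitm2 higher and none lower. The genes of one pathway vary together from mouse to mouse, so that such counts are not counts of independent events. Marker lists moved with this difference as well, though no marker was called. All 7 tested T and NK markers lay above 0 (median 3.34), as did 12 of 12 Kupffer cell and macrophage markers (0.38). So did 3 of 3 tested B cell (1.36) and 2 of 2 tested neutrophil markers (1.60), and 5 of 6 hepatocyte markers (0.38). Of the plasmacytoid dendritic cell list only 2 of 5 genes were tested, Siglech not among them, and these lay above 0 (0.29). All 6 sinusoidal endothelial markers lay below 0 (-0.36). The part of these cells was not tested.

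Over the 5 comparisons 14 of the 36 tested members passed in at least 1, and 22 passed in none. The 22 were Stat2, the sensors Ifih1 and Dhx58 (log2 fold changes between -0.18 and 0.33 in the 4 comparisons between groups), Usp18 and Trim25 (-0.37 to 0.31), the GTPases Igtp, Irgm1 and Gbp7 (-1.44 to 1.38) and 8 antiviral effectors. Those effectors were Ifit1, Ifit3, Ifit3b, Oas1a, Oasl1, Oasl2, Rsad2 and Cmpk2, with log2 fold changes between -0.74 and 0.95. Cxcl10 lay between -1.16 and 0.92 and did not pass either. It stood at 10.3, 1.28, 5.20, 4.61 and 4.29 CPM in Vec, 2.44, 3.36, 3.28, 1.92 and 1.36 CPM in Vec+BBR, 1.28, 2.57, 4.55, 2.41 and 0.75 CPM in shRNA and 3.59, 7.50, 4.83, 3.61 and 2.35 CPM in shRNA+BBR livers, so that Vec mouse 1 was highest and all groups overlapped. The rest were Rtp4, Xaf1, Parp14, Ifi35 and Ifi44 (-0.46 to 0.91).

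The upstream parts of the pathway were read from lists of other genes. None of 21 interferon genes passed the filter, and the highest count of any of them in a library was 5, for Ifng. At this depth a change in interferon mRNA was not detectable. The type I receptor was lower with the knockdown. Ifnar1 fell by 0.36 on the log2 scale under vehicle (adjusted p = 0.00244) and under BBR (adjusted p = 0.00549), from group means of 30.3 and 29.2 CPM to 23.5 and 22.8 CPM. Ifnar2 fell by 0.44 (adjusted p = 0.00233) and by 0.30 (adjusted p = 0.0379). Il10rb, a shared chain of the type III interferon receptor, rose with BBR in Vec (log2 fold change 0.57, adjusted p = 0.00586) and in shRNA livers (0.47, adjusted p = 0.0208). Ifnlr1, the other chain, was called higher with the knockdown under vehicle (2.07 ± 0.48, SE, adjusted p = 0.00656), from 0.144 to 0.630 CPM, with at most 16 counts in a library. Neither interferon gamma receptor gene was called in any comparison.

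Of 10 tested JAK-STAT and feedback genes, Jak1 rose with BBR in Vec livers and with the knockdown under vehicle, and Ptpn6 fell with the knockdown under vehicle and rose with BBR in shRNA livers. No other gene of that list passed. Of 14 tested sensors and adaptors, Tlr3 rose and Myd88, Ikbke and Irf8 fell with the knockdown under vehicle. Ikbke fell with the knockdown under BBR, and Zbp1 and Irf8 rose with BBR in shRNA livers. The 3 sensors and adaptors that fell with the knockdown under vehicle were 21.4% of those tested, beside 7.91% of all tested genes, and in the JAK-STAT list no more than 1 gene of 10 was called in a direction.

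Further interferon-stimulated genes, 61 tested of 70 listed, were called in both directions. With BBR in Vec livers 5 rose (8.2%, beside 7.58% of all tested genes) and 7 fell (11.5%, beside 7.88%), shares near the background. Cxcl9, a chemokine induced by interferon gamma, fell from a mean of 36.8 to 9.32 CPM (log2 fold change -1.98 ± 0.65, SE, adjusted p = 0.0431), with single Vec livers at 94.8, 1.99, 22.6, 42.2 and 22.3 CPM and Vec+BBR livers at 12.3, 9.72, 10.04, 3.75 and 10.8 CPM. Cxcl11, Tgtp2, Gbp11, Parp11, Pnp and Ly6e fell too. Slfn2, a regulator of T cell and monocyte quiescence, rose from 3.04 to 7.59 CPM, and Ifi207, Ifi204, Ifi27l2b and Lgals3bp rose as well. With the knockdown under vehicle Helz2 rose and Gbp6 fell, 1.64% in each direction, beside 5.28% and 7.91% of all tested genes. Even so, 49 of the 61 lay below 0 (median log2 fold change -0.27). With the knockdown under BBR Parp11, Tor3a, Cxcl11 and Ly6e rose (6.56%, beside 3.31%) and Trim34a fell (1.64%, beside 4.82%). With BBR in shRNA livers 11 rose (18%, beside 8.37%) and 3 fell (4.92%, beside 7.28%), and 46 of the 61 lay above 0 (median 0.48). Those that rose were again Slfn2, Ifi204, Ifi207 and Ifi27l2b, together with Ifi211, Samd9l, Sp100, Slfn5, Phf11b, Epsti1 and Gbp6, and those that fell were Parp10, Parp12 and Trim14.

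Antigen presentation genes, of which all 21 were tested, were called as lower and not as higher in both comparisons with Vec livers. Tap2, Psmb8 and Psmb10 fell with BBR in Vec livers (14.3%, beside 7.88% of all tested genes), and Tap1, Tapbp, Psmb9 and H2-Eb1 fell with the knockdown under vehicle (19%, beside 7.91%). Psmb8 rose with the knockdown under BBR (4.76%, beside 3.31%), and Psme1 and H2-Eb1 rose with BBR in shRNA livers (9.52%, beside 8.37%). Apart from Psmb10 and Psme1 these genes lie in the H2 region, which differs in sequence between mouse strains.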

How the data were processed

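Liver mRNA of 20 mice, 5 in each of 4 groups, was sequenced by the authors on an Illumina NovaSeq after poly(A) selection. The samples were grouped by the treatment in the labels, and the vector, dose and age are those of the study's methods. Per the file headers, the authors deposited a count and an FPKM value per gene. Between 91.9% and 93.3% of the deposited counts of a library were whole numbers, so they were taken for estimated counts that the authors did not normalize, in which reads matching several genes can be divided. The deposited FPKM values were scaled by the authors for length and depth, and served only to rank levels between genes. The submitters' processing notes name the build mm10. The aligner and counter are not given in the sources used here.

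Expected counts were rounded, low genes were removed with filterByExpr (at least 10 counts, and 15 in total), and the remaining 12342 were fitted with the quasi-likelihood test of edgeR 4.0.16 (TMM factors 0.873 to 1.14, a mean for each of the 4 groups, Benjamini-Hochberg adjustment over all tested genes, threshold 0.05). BBR was compared with vehicle within each vector, the knockdown with the control vector within each treatment, and the BBR effects of both vectors with each other, which makes 5 comparisons. The procedure was also run on simulated counts, with the same dispersion for every gene and changes only in genes with ample counts. That run does not show how the procedure does for members with low counts or a wide spread. No 2 of the 40 library pairs within groups were alike within sampling noise (chi-square per gene at least 14.3). Alternatives were DESeq2 1.42.0, limma-voom 3.58.1, DESeq2 size factors, other filters, robust estimation, only the groups compared, the replicate number as a block, and each mouse left out in turn. Values are given for each member past the threshold, for the 3 with the smallest p-value per comparison, and for the highest and lowest FPKM of each role, and in the other pathway lists for genes past the threshold. Some other values, such as those of Cxcl9 in each mouse, were chosen after they were seen. The members and lists were chosen with earlier results of these data known. Positions are of GRCm38. The library kit was not stated to mark strand, so reads of genes that overlap on opposite strands cannot be told apart.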

Additional observations from a re-analysis of the deposited data

Results flagged for a closer look

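Among the 144 combinations of a tested member and a group, 10 (6.94%) held a mouse far from the other 4 by Dixon's criterion, where chance alone gives about 1 in 20. In shRNA+BBR it was mouse 2 each time, with Igtp at 202 CPM (the others 36.2 to 54.9), Ifi47 at 24.9 CPM (11.2 to 13.6), Gbp2 at 17.7 CPM (9.24 to 10.2) and Irf9 at 23 CPM (15 to 16.4). In shRNA livers, mouse 5 was low in Ifit3b at 0.583 CPM (the others 1.69 to 2.06) and high in Trim25 at 57.2 CPM (50.4 to 51.5). Mouse 2 of that group was high in Ifih1 at 13.6 CPM (9.79 to 10.9), and mouse 1 was low in Ifitm2 at 99.8 CPM (109 to 111). Vec+BBR mouse 1 was high in Ifitm2 at 102 CPM (82.9 to 85.8). Vec mouse 3 was high in Oas1a at 3.24 CPM (0.902 to 1.55).

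The BBR effect on Ifitm2 differed between shRNA and Vec mice by 0.70 on the log2 scale in the test of the difference itself (adjusted p = 0.0237 in edgeR's quasi-likelihood test). BBR lowered it in Vec livers, where all 5 Vec+BBR livers were below all 5 Vec livers, whereas the shRNA and shRNA+BBR livers overlapped.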

How the results depend on the processing

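Of 23 results on single genes, 663 values were computed under alternatives. None changed direction, 94 of the called values no longer passed, and 15 values that had not passed did. Of 19 calls, 7 were kept in every alternative, Ifitm2 and Ifitm3 with BBR in Vec mice, Ifitm2, Ifitm3, Irf7 and Ddx58 with the knockdown in BBR mice, and Isg20 with BBR in shRNA mice. DESeq2 called 5 members in place of 1 with the knockdown in vehicle mice and 6 in place of 1 for the difference between the BBR effects. Without the filter on counts the knockdown in vehicle mice gave 0 calls and BBR in shRNA mice 2 in place of 4. Fitting only the groups compared gave 7 for BBR in shRNA mice. With both Vec mouse 1 and shRNA+BBR mouse 2 left out, which was chosen after seeing the data, the counts were 3 for BBR in Vec mice, 0 for the knockdown in vehicle mice, 4 for the knockdown in BBR mice, 2 for BBR in shRNA mice and 0 for the difference. Leaving out each mouse in turn gave 2 to 9 calls for BBR in Vec mice, 0 to 5 for the knockdown in vehicle mice, 4 to 8 for the knockdown in BBR mice, 1 to 5 for BBR in shRNA mice and 0 to 2 for the difference. The causes were not tested.

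The replicate numbers were not found to pair mice. Deviations of same-numbered libraries correlated above 0.1 in at most 3 of 5 numbers, between shRNA and shRNA+BBR. With a replicate block the counts were 5 for BBR in Vec mice (Ifi47 lost), 1 for the knockdown in vehicle mice (Ifi35 in place of Irf9), 7 for the knockdown in BBR mice, 4 for BBR in shRNA mice (Oas1a in place of Isg15) and 1 for the difference.

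Depth limits the low members. In a library, 3 counts correspond to 0.120 to 0.172 CPM, and of the interferon genes Ifng alone passed 3 counts in a library, most of the others having no count in any.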

Other observations

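Siglech, a defining marker of plasmacytoid dendritic cells, the main producers of type I interferon, was at or below 0.101 CPM in every liver, which is under the level of 3 counts. The 5 markers of that list summed to a median of 46.4 CPM in Vec, 102 in Vec+BBR, 55.5 in shRNA and 147 in shRNA+BBR livers. Most of this was Ly6d, which rose with BBR in shRNA mice from a mean of 50.9 to 133 CPM (log2 fold change 1.39 ± 0.42, SE, adjusted p = 0.0311, edgeR) and did not pass in Vec mice (1.06 ± 0.41, SE, adjusted p = 0.0859). B cell markers summed to 51.7 CPM in shRNA+BBR mouse 4, and to at most 9.85 CPM in any other liver.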
